A study of Mus musculus with 9 samples.

Results

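The genes described here are those of the mitochondrial respiratory chain and ATP synthase in mouse embryos at the blastocyst stage, taken from the nuclear genome and from mitochondrial DNA. Nuclear members were the rows whose symbol begins with Nduf, Uqcr, Cox4 to Cox8 or Atp5 or is Sdha, Sdhb, Sdhc or Sdhd. Mitochondrial members were all rows placed on the mitochondrial chromosome (chrM). Of 16070 rows, 127 were members: 91 nuclear rows and 36 chrM rows. The nuclear rows comprised 44 for complex I, 4 for complex II, 8 for complex III, 16 for complex IV and 19 for complex V. The chrM rows comprised 13 mRNAs, 21 tRNAs and 2 rRNAs. The name patterns also took in 7 assembly factors of complex I, tissue isoforms of complex IV, 2 pseudogenes (Atp5l-ps2 and Atp5l2-ps) and 2 genes named after ATP synthase that are not subunits of it (Atp5s and Atp5sl). Ndufa4 was counted with complex I by its name, although its protein is now placed in complex IV.

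Complexes I to IV pass electrons from NADH and succinate to oxygen, complexes I, III and IV pump protons across the inner mitochondrial membrane, and complex V uses that gradient to make ATP. Complex II, which is also an enzyme of the tricarboxylic acid cycle, is built from nuclear genes alone, whereas the other complexes combine nuclear subunits with proteins made from mitochondrial mRNAs. Mitochondrial DNA is copied into long RNAs from both strands, and excision of the tRNAs that lie between its genes releases most of the mRNAs and rRNAs. In the blastocyst, trophectoderm, the outer layer, is known for more active mitochondria than the inner cells.

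RNA was measured in C57BL/6 embryos 4.5 days after microinjection, in 9 libraries of 3 per group: wild type (WT), a substitution of histidine for arginine 17 of histone H3 (H3R17H), and loss of the arginine methyltransferase CARM1, which methylates that residue (Carm1-/-). The embryos were grown in vitro, and the series title gives CRISPR-Cas9 editing as the method. Nothing in the labels ties a library to a separate embryo, and the extraction note speaks of single cells where the sample labels speak of embryos, so any p-value speaks of the scatter among libraries, which may be technical. Values are FPKM, fragments scaled to transcript length and to the total of the library, so levels of different genes can be compared per length, and read depth is unknown.

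Carm1 went against the labels. WT libraries held 6.65 to 8.86 FPKM of it, those labelled H3R17H 0.02 to 1.88 FPKM and those labelled Carm1-/- 6.44 to 12.68 FPKM. The labels also conflict among themselves, since the column names and descriptions of the libraries titled H3R17H begin with Carm and those of the libraries titled Carm1-/- begin with Hist. Groups are therefore named by title throughout, and no difference is assigned to a genotype. Y-linked transcripts were present in all 3 WT libraries and in replicate 1 of each edited group and near 0 in the other 4 libraries, so sex moved with the groups. The summed level of 14 trophectoderm markers, all of them listed, was 6127 to 8905 FPKM in WT, and 2195, 2262 and 5238 FPKM in replicates 1 to 3 labelled H3R17H. It was 9638, 2254 and 2911 FPKM in replicates 1 to 3 labelled Carm1-/-, so replicate 1 of this label lay above WT and the other 5 edited libraries below it. Most of this sum is Krt8 and Krt18, keratins of the outer layer. Id2 and Gata3 were also low in the same 5 edited libraries. Id2 was at 308 to 536 FPKM in WT, 39.3 to 74.5 FPKM in H3R17H and 296, 32.4 and 25.7 FPKM in Carm1-/-. Gata3 was at 277 to 369, 147 to 219 and 276, 73.9 and 77.7 FPKM. Other listed markers did not all follow the sum. Tfap2c was at 24.1 to 46.3 FPKM in WT, 37.5 to 55 FPKM in H3R17H and 31.2 to 38.1 FPKM in Carm1-/-. Elf3 was at 272 to 331 FPKM in WT and 311 to 408 FPKM in H3R17H. In replicates 1 to 3 labelled Carm1-/- Elf3 was at 392, 65.5 and 169 FPKM. Cdx2, which defines trophectoderm, was at 10.2, 7.13 and 5 FPKM in WT and 5.7, 2.34 and 6.52 FPKM in H3R17H, with overlap. In replicates 1 to 3 labelled Carm1-/- Cdx2 was at 12.74, 0.6 and 0.14 FPKM, the last 2 below all other libraries. In these bulk values fewer cells of a type and less RNA per cell cannot be told apart. The sums for 10 listed epiblast markers were 4437, 5604 and 6320 FPKM in WT and 4326, 4153 and 4327 FPKM in H3R17H, all below WT. In Carm1-/- they were 4771, 5350 and 6384 FPKM, with overlap. Most of this sum is Dppa5a, at 4145 to 6119 FPKM in WT, 3907 to 4104 FPKM in H3R17H and 4612 to 6188 FPKM in Carm1-/-. Nanog, another listed epiblast marker, overlapped WT in H3R17H, at 39.9 to 56.9 FPKM in WT and 40.3 to 63.5 FPKM in H3R17H. For 11 listed primitive endoderm markers the sums were 213 to 275 FPKM in WT and 190, 154 and 184 FPKM in H3R17H. In replicates 1 to 3 labelled Carm1-/- they were 289, 116 and 150 FPKM, so the same 5 edited libraries lay below WT. Dab2, at 124 to 157 FPKM in WT, is counted in this list and in the trophectoderm list. Of the markers of cells outside the embryo, 4 for oocytes, 1 for cumulus cells and 1 for red blood cells were listed, with oocyte sums of 1.6 to 28.15 FPKM. The part of sex, of these marker shifts and of replicate 1 labelled Carm1-/- in the differences below was not tested as a cause.

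The chain was strongly expressed. The 91 nuclear members together made up 4.63% to 5.45% of all listed FPKM in a library, and the 36 chrM rows 2.12% to 3.31%. Per length, the highest nuclear levels in WT belonged to Uqcrc1, a core protein of complex III, at 1204 ± 189 FPKM (mean ± SD, n = 3, as for all such values here), Cox4i1 of complex IV at 1133 ± 114 FPKM and Atp5g1, which encodes the membrane ring of ATP synthase, at 1097 ± 81.6 FPKM. The WT libraries of these 3 genes overlapped. In complex I the highest level was that of Ndufb9, an accessory subunit, at 587 ± 32.9 FPKM, and the lowest that of Ndufaf5, an assembly factor, at 0.81 ± 0.35 FPKM. Some tissue isoforms were low or absent. Cox6a2, the heart and muscle form of a complex IV subunit, was at 1.93 FPKM in replicate 2 labelled H3R17H and listed at 0 in the other libraries. Cox8c, a testis form, was listed at 0 in 7 of 9 libraries. Their ubiquitous counterparts Cox6a1 and Cox8a stood at 1012 ± 208 and 841 ± 179 FPKM in WT. Of the nuclear members 88 reached 1 FPKM in 3 or more libraries, the filter for testing, and the 3 that did not were Cox6a2, Cox8c and Atp5l-ps2. All 36 chrM rows passed.

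No member passed the test in any comparison. With limma on log2(FPKM + 1), adjusted over all 11850 tested genes, 0 of 88 nuclear and 0 of 36 chrM members had an adjusted p under 0.05 in the libraries labelled H3R17H against WT, in those labelled Carm1-/- against WT, or between the edited groups. The share of all genes called was 0% in each comparison. At an unadjusted p under 0.05 limma gave 17 higher and 13 lower members for H3R17H against WT, beside 6.41% higher and 7.75% lower among all genes. Of these members, 2 higher and 10 lower were among the 88 nuclear ones, and 15 higher and 3 lower among the 36 chrM rows. For Carm1-/- against WT limma gave 14 higher and 7 lower, beside 5.25% and 6.19%. Here 1 higher and 5 lower were nuclear, and 13 higher and 2 lower were chrM rows. Between the edited groups limma gave 5 higher and 3 lower in Carm1-/- (5 and 2 nuclear, 0 and 1 chrM), beside 4.09% and 4.12%. There 5 nuclear members were higher in all Carm1-/- than in all H3R17H libraries and 6 members lower (5 nuclear and 1 chrM), beside 5.13% and 6.07% of all genes. The comparisons with WT share the WT libraries and are therefore given side by side and not as independent results.

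The nuclear members as a whole lay close to WT, and the chrM rows lay higher. The median log2 difference of the 88 nuclear members was -0.00 in H3R17H against WT, with 44 higher and 44 lower, and 0.01 in Carm1-/- against WT, with 46 higher and 42 lower. The median of all tested genes was -0.03 and -0.04. For the 36 chrM rows the medians were 0.71, with 29 rows higher, and 0.50, with 27 rows higher. They include mRNA rows whose values are uncertain, as given below. The sign of the nuclear median is not settled by these libraries, since it was -0.08 and -0.05 after rescaling on nuclear genes, -0.11 and -0.09 after quantile normalization and -0.12 and -0.02 with a sex term. The chrM median was above 0 against WT in each of the 21 alternatives run for either comparison, but its size moved. In H3R17H it was 0.43 with a sex term. In Carm1-/- it was 0.17 without replicate 2 and 0.82 without replicate 1 of that label, and 0.79 with a filter at a mean of 5 FPKM.

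**Figure D1:**
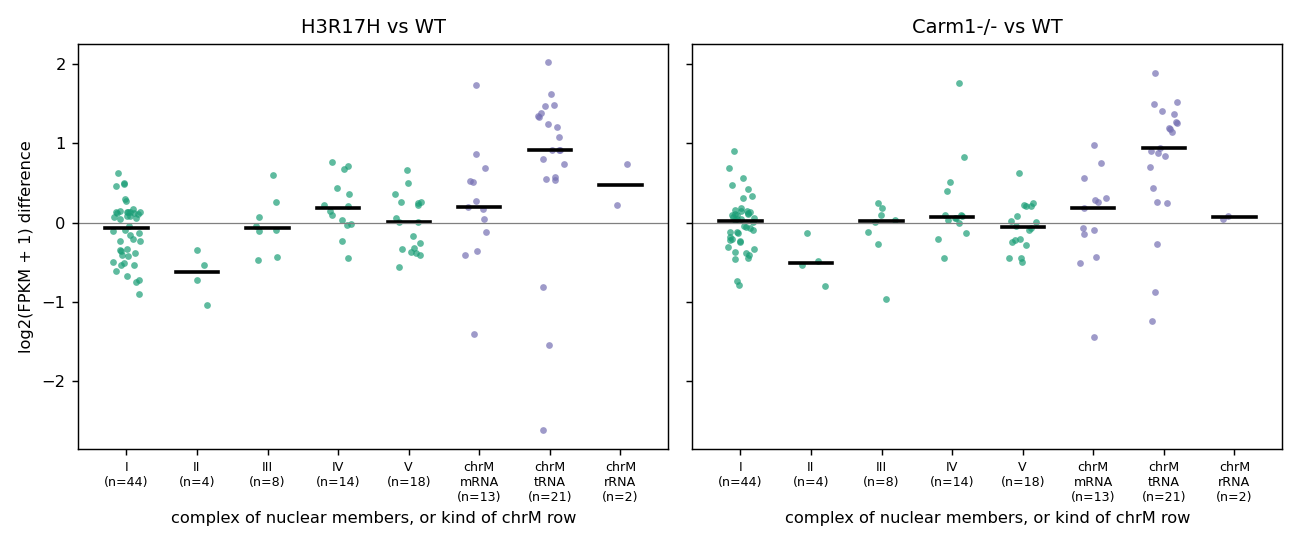
Difference of each tested member from WT on the log2(FPKM + 1) scale, for the libraries labelled H3R17H (left) and Carm1-/- (right), with nuclear members by complex and chrM rows by kind. Each point is a gene and each black bar a median. All 4 complex II genes lie below 0 in both panels, and 18 of 21 tRNA rows lie above 0 in both.

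Complex II stood lowest among the 5 complexes in both comparisons with WT. Its 4 genes had a median log2 difference of -0.63 in H3R17H against WT and -0.51 in Carm1-/- against WT, and all 4 had lower means than WT in each. Sdha and Sdhb encode the catalytic head, which oxidises succinate and passes electrons through iron-sulfur clusters, and Sdhc and Sdhd encode the anchors that hold the head to the membrane. Sdhd (chromosome 9, 50596357 to 50603812, minus strand, GRCm38) was at 219, 226 and 223 FPKM in WT, 128, 80.7 and 122 FPKM in replicates 1 to 3 labelled H3R17H, and 193, 79.3 and 136 FPKM in those labelled Carm1-/-. All 6 edited libraries lay below the 3 WT libraries, which spanned 219 to 226 FPKM, and replicate 1 labelled Carm1-/- lay nearest to WT. The log2 difference was -1.03 (SE 0.31, limma adjusted p = 0.237) for H3R17H and -0.79 (SE 0.31, adjusted p = 0.389) for Carm1-/-. With a sex term it was -0.62 and -0.38, and for Carm1-/- it was -0.45 without replicate 2. Sdhd passed for H3R17H with array quality weights (adjusted p = 0.0452, in a fit that called 1.62% of all genes) and with only the groups compared (adjusted p = 0.0428, 2.03% of all genes). Its adjusted p was as high as 0.716 over 21 alternatives.

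Sdhb was at 425, 433 and 575 FPKM in WT, 295, 230 and 345 FPKM in H3R17H and 454, 363 and 487 FPKM in Carm1-/-. The libraries labelled H3R17H lay below all other 6, and those labelled Carm1-/- overlapped WT. Its log2 difference was -0.72 (SE 0.22, adjusted p = 0.237) for H3R17H against WT and 0.59 (SE 0.22, adjusted p = 0.547) for Carm1-/- against H3R17H. Sdha was at 133, 140 and 108 FPKM in WT, 87.7, 102 and 109 FPKM in H3R17H and 91.1, 79.3 and 91.2 FPKM in Carm1-/-. Here the libraries labelled Carm1-/- lay below all WT libraries (log2 difference -0.53, SE 0.20, adjusted p = 0.371), and H3R17H overlapped WT (-0.34, SE 0.20, adjusted p = 0.455). Sdhc, at 52.6 to 95.4 FPKM in WT, overlapped WT in both edited groups, and its log2 difference of -0.49 in Carm1-/- was -0.03 with a sex term. With a sex term the complex II medians were -0.51 and -0.23, and the second was -0.68 without replicate 1 and -0.29 without replicate 2 labelled Carm1-/-. All 4 differences were below 0 in these fits, and 3 of 4 in Carm1-/- without WT replicate 3. Over all 21 alternatives the medians stayed between -0.81 and -0.46 for H3R17H and between -0.68 and -0.23 for Carm1-/-.

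**Figure D2:**
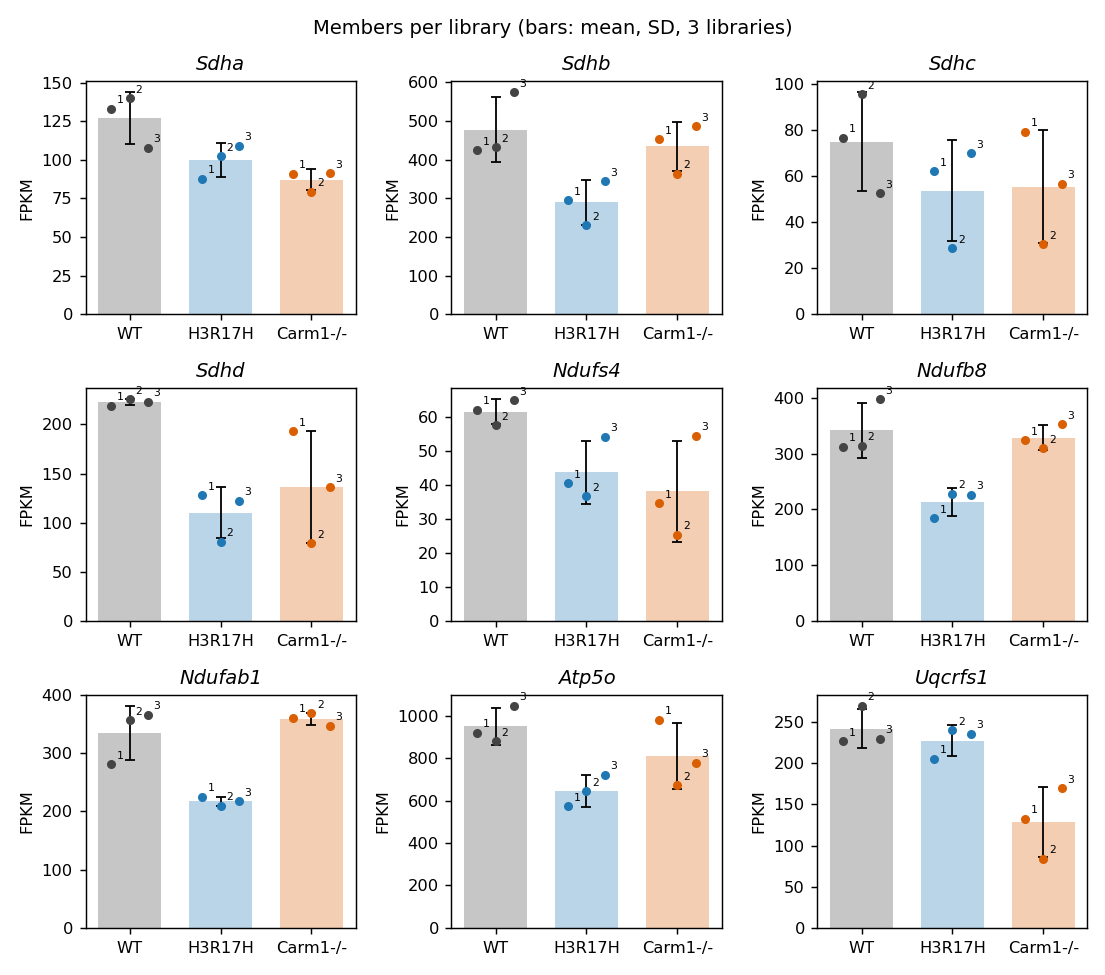
FPKM of 9 nuclear members, coloured by label. Each numbered point is a replicate, columns are means of the 3 libraries and error bars their SD. Sdhd lies at 219 to 226 FPKM in WT, above all 6 edited libraries (79.3 to 193 FPKM), whereas Uqcrfs1 is low in the libraries labelled Carm1-/- alone among the 3 groups.

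The promoters of Sdhb and Sdhd are shown because these genes were the members of complex II with the smallest p in H3R17H against WT. Each is 300 bases from RefSeq (GRCm38.p6), 250 before and 50 after the start, read 5′ to 3′ on the gene's strand, at chr4:140961021-140961320 (plus strand) and chr9:50603800-50604099 (minus strand). Capitals mark the core motif of ETS factors, CCGGAAG or its reverse complement CTTCCGG, and, as the longer run in Sdhd, the consensus of NRF1. NRF1 and the ETS factor NRF-2, or GA-binding protein, are known regulators of respiratory genes.
Sdhb: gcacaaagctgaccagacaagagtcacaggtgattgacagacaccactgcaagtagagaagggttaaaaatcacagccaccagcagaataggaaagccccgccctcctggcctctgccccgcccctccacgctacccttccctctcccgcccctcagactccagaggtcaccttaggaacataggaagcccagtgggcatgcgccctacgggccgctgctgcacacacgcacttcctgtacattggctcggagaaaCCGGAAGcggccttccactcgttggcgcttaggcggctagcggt
Sdhd: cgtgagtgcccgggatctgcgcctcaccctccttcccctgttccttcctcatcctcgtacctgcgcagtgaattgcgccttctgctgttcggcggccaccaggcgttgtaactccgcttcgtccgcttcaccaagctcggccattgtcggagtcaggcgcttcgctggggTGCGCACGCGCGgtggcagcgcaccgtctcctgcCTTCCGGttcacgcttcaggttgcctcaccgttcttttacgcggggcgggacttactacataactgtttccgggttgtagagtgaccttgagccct
Promoters of this kind were matched for 75 nuclear members. The ETS motif, searched on both strands, was in 22.7% of these genes, in 9.93% of all 27025 genes with a promoter and in 22.0% of the 8391 tested genes with one. The member share was therefore close to that of the tested genes. The NRF1 motif, also searched on both strands, was in 9.33% of member genes, 1.41% of all genes and 3.46% of tested genes. The 7 members with it were Atp5c1, Atp5g2, Ndufa6, Ndufa11, Ndufb4, Sdhd and Uqcrc1. A match describes letters in a window and not a bound site.

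In complex I, which takes electrons from NADH, the 44 rows had a median log2 difference of -0.07 in H3R17H against WT, with 21 higher and 23 lower. In Carm1-/- against WT the median was 0.02, with 23 higher and 21 lower. Neither split was stable: without WT replicate 1, 10 were higher and 34 lower in both comparisons, with a sex term 10 and 34 in H3R17H, and in Carm1-/- 30 and 14 without replicate 2 and 11 and 33 without replicate 3 of that label. All 7 core subunits encoded in the nucleus that the table lists had lower means than WT in the libraries labelled H3R17H. Ndufs1, the large core subunit with several iron-sulfur clusters, was at 58.8 ± 4.16, 42 ± 14.5 and 46.7 ± 17.7 FPKM in WT, H3R17H and Carm1-/-, within the spread of its libraries.

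The accessory subunits of complex I with the smallest p in H3R17H against WT were Ndufb8 and Ndufab1, neither of which passed. Ndufab1, which is also the mitochondrial acyl carrier protein, was at 281, 356 and 366 FPKM in WT, 225, 210 and 217 FPKM in H3R17H and 361, 368 and 347 FPKM in Carm1-/-. The libraries labelled H3R17H lay below all other 6. The log2 difference was -0.61 (SE 0.17, adjusted p = 0.229) for H3R17H against WT and 0.72 (SE 0.17, adjusted p = 0.383) for Carm1-/- against H3R17H. Ndufb8, an accessory subunit of the membrane arm, was also lowest in H3R17H, at 312, 314 and 398 FPKM in WT, 184, 228 and 226 FPKM in H3R17H and 324, 309 and 353 FPKM in Carm1-/-. Its log2 differences were -0.68 (SE 0.18, adjusted p = 0.224) and 0.63 (SE 0.18, adjusted p = 0.438), and the libraries labelled H3R17H again lay below the other 6. Over the alternatives the lowest adjusted p was 0.0636 for Ndufab1 and 0.059 for Ndufb8 in H3R17H against WT.

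In Carm1-/- against WT the complex I members with the smallest p were Ndufaf2, Ndufs4 and Ndufaf6, none of which passed. Ndufs4, an accessory subunit next to the NADH-binding module, was at 62, 57.5 and 64.8 FPKM in WT, 40.4, 36.6 and 54.1 FPKM in H3R17H and 34.6, 25.3 and 54.3 FPKM in Carm1-/-. All 6 edited libraries lay below WT, replicate 3 of each group nearest to it, and the log2 difference for Carm1-/- was -0.74 (SE 0.29, adjusted p = 0.389), and -0.49 without replicate 2 of that label. The assembly factor Ndufaf2 was at 15.9, 19.2 and 11.8 FPKM in WT and 6.6, 10.7 and 8.64 FPKM in Carm1-/- (log2 difference -0.78, SE 0.28, adjusted p = 0.358). Another assembly factor, Ndufaf6, was at 13.7, 11 and 10.4 FPKM in WT and 13.6, 20.6 and 25.6 FPKM in Carm1-/- (log2 difference 0.69, SE 0.30, adjusted p = 0.419), with replicate 1 of that label inside the WT range.

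Complex III passes electrons from ubiquinol to cytochrome c. Uqcrfs1, the member of the complex with the smallest p in Carm1-/- against WT, encodes its Rieske iron-sulfur protein, without which it does not transfer electrons, and did not pass. Its level was 227, 270 and 230 FPKM in WT, 206, 240 and 236 FPKM in H3R17H and 133, 83.9 and 170 FPKM in Carm1-/-. The libraries labelled Carm1-/- lay below all other 6, while H3R17H overlapped WT. The log2 difference was -0.96 (SE 0.25, adjusted p = 0.266) for Carm1-/- against WT and -0.87 (SE 0.25, adjusted p = 0.421) for Carm1-/- against H3R17H. The core protein genes Uqcrc1 and Uqcrc2 had lower means in H3R17H than in Carm1-/-. Uqcrc2 was at 208, 215 and 264 FPKM in WT, 162, 177 and 153 FPKM in H3R17H and 257, 177 and 205 FPKM in Carm1-/-, so H3R17H lay below WT (log2 difference -0.47, SE 0.20, adjusted p = 0.339). Uqcrc1 was at 1334, 987 and 1291 FPKM in WT, 749, 998 and 928 FPKM in H3R17H and 1384, 1108 and 1200 FPKM in Carm1-/-, where Carm1-/- lay above H3R17H (0.47, SE 0.19, adjusted p = 0.570). Uqcrb, an accessory subunit, was at 292, 411 and 425 FPKM in WT, 643, 595 and 466 FPKM in H3R17H and 138, 388 and 538 FPKM in Carm1-/-. Its value is uncertain, since 51.2% of its 40-base words also occur in transcripts of other annotated genes, and its sign in Carm1-/- against WT turned from -0.27 to 0.30 without replicate 1 of that label. Over the 8 genes the median was -0.07 in H3R17H and 0.02 in Carm1-/- against WT.

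Complex IV, cytochrome c oxidase, reduces oxygen. Its 14 tested nuclear rows had a median log2 difference of 0.18 in H3R17H against WT and 0.07 in Carm1-/- against WT, with 10 higher and 4 lower in each. Without WT replicate 1 the medians were 0.02 and -0.08, the second with 5 higher and 9 lower, and with a sex term 0.06 and 0.00. The most expressed subunits overlapped WT in both edited groups. Cox4i1 was at 1133 ± 114, 1110 ± 72.2 and 1182 ± 167 FPKM and Cox6a1 at 1012 ± 208, 1065 ± 63.8 and 1024 ± 109 FPKM in WT, H3R17H and Carm1-/-. Cox6c, a small accessory subunit, was at 339, 707 and 476 FPKM in WT, 1002, 596 and 847 FPKM in H3R17H and 480, 803 and 870 FPKM in Carm1-/-, with overlap of each edited group and WT (log2 difference 0.71, SE 0.32, adjusted p = 0.351 for H3R17H, and 0.46 without WT replicate 1). Cox7c was at 146, 236 and 204 FPKM in WT, 253, 245 and 281 FPKM in H3R17H and 71.2, 172 and 222 FPKM in Carm1-/-. The log2 difference of Carm1-/- against H3R17H was -0.89 (SE 0.37, adjusted p = 0.574), and its libraries did not overlap those of H3R17H. Against WT it was -0.45, 0.03 without replicate 1 labelled Carm1-/- and -0.95 with a sex term. Cox7a2l, a factor that joins complexes into supercomplexes, was at 211 ± 17 FPKM in WT and 155 ± 23.1 FPKM in H3R17H, with no overlap (log2 difference -0.45, SE 0.21, adjusted p = 0.362).

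Among the tissue isoforms of complex IV, Cox7a1, the form of heart and skeletal muscle, was at 20.8, 41.1 and 41.4 FPKM in WT, 36.5, 68.7 and 72.8 FPKM in H3R17H and 14, 93.4 and 152 FPKM in Carm1-/-. Replicate 1 labelled Carm1-/- was the lowest of the 9 libraries and its replicates 2 and 3 the highest. In the fit of all 9 libraries the log2 difference of Carm1-/- from WT was 0.82 (SE 0.71, adjusted p = 0.667). Without replicate 1 it was 1.82 (SE 0.40, adjusted p = 0.0375), in a fit that called 4.63% of all genes. Cox7b2, a form known from testis, stood at 0.08, 0.20 and 8.01 FPKM in WT and 3.6, 5.01 and 15.2 FPKM in Carm1-/-, with overlap (log2 difference 1.75, SE 0.79, adjusted p = 0.437, and 0.78 with a pseudocount of 5).

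In complex V the 18 tested rows had medians of 0.01 in H3R17H and -0.05 in Carm1-/- against WT. Atp5o, the stalk subunit that ties the catalytic head to the membrane part, was at 920, 881 and 1047 FPKM in WT, 572, 643 and 721 FPKM in H3R17H and 981, 672 and 779 FPKM in Carm1-/-. The libraries labelled H3R17H lay below WT (log2 difference -0.56, SE 0.19, adjusted p = 0.263), and Carm1-/- overlapped WT. Atp5a1, the alpha subunit of the head, was at 666, 600 and 552 FPKM in WT, 466, 463 and 469 FPKM in H3R17H and 627, 377 and 367 FPKM in Carm1-/-. Replicate 1 labelled Carm1-/- lay inside the WT range and the other 5 edited libraries below it. The log2 difference of Carm1-/- from WT was -0.45 (SE 0.22, adjusted p = 0.461), -0.70 (SE 0.16, adjusted p = 0.0402) without that replicate and -0.20 with a sex term. The beta subunit gene Atp5b, which carries the catalytic sites, stood at 953 ± 107, 951 ± 28.9 and 898 ± 119 FPKM in the 3 groups, within its spread.

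Atp5d, the delta subunit of the head, went the other way from Atp5a1 in H3R17H, at 282, 233 and 190 FPKM in WT and 304, 303 and 383 FPKM in H3R17H (log2 difference 0.50, SE 0.24, adjusted p = 0.372). Atp5k, the small membrane subunit e, was at 102, 154 and 149 FPKM in WT, 171, 205 and 266 FPKM in H3R17H and 113, 253 and 303 FPKM in Carm1-/-. H3R17H lay above WT, and replicate 1 labelled Carm1-/- lay inside the WT range. The log2 difference of Carm1-/- from WT was 0.62 (SE 0.35, adjusted p = 0.507), 1.05 (SE 0.25, adjusted p = 0.048) without that replicate, 0.34 without replicate 3 and 0.04 with a sex term. The ring subunit c is encoded by Atp5g1, Atp5g2 and Atp5g3, of which Atp5g1 stood about as high in all groups, at 1097 ± 81.6, 1108 ± 140 and 1067 ± 252 FPKM.

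Core and accessory subunits were also read across complexes. The 19 core or head subunits (7 of complex I, the 4 of complex II, the core and Rieske proteins of complex III and the F1 head of complex V) had a median log2 difference of -0.37 in H3R17H against WT, with 16 lower, and -0.20 in Carm1-/- against WT, with 15 lower. In H3R17H 10 of these genes were lower in all 3 libraries than in all WT libraries and 1 was higher, beside 15.6% lower and 13.3% higher among all tested genes. In Carm1-/- 4 were lower and 0 higher in this way, beside 9.71% and 6.91%. The 55 accessory subunits had medians of 0.08, with 34 higher, and 0.06, with 35 higher. The accessory medians turned with the setting: they were -0.09 and -0.10 without WT replicate 1, -0.08 and -0.03 with a sex term and -0.02 and -0.03 after quantile normalization. The difference between core and accessory subunits was not tested. The core median in H3R17H against WT was -0.17 with a sex term. The core median in Carm1-/- against WT was -0.02 with a sex term, -0.01 without replicate 2 and -0.33 without replicate 1 of that label.

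Annotated transcript length moved with these differences, and with role. The median length of the coding transcripts was 1046 bases for core or head subunits and 623 bases for accessory subunits. A gene's length here is the median over its annotated coding transcripts, short ones included, and may differ from that of the RNA expressed. The core genes Ndufs1, at 651 bases, and Uqcrc1, at 533, thus count as short and the accessory Ndufb2, at 2413, as long. Across 87 nuclear members with a length, Spearman's rank correlation of length and log2 difference was -0.53 in H3R17H and -0.41 in Carm1-/- against WT, beside -0.06 and -0.10 across 9858 tested genes. These are descriptions across genes that share libraries. The 44 members of up to 704 bases had a median of 0.12 in H3R17H against WT, with 29 higher and 15 lower, and the 43 longer ones -0.26, with 14 higher and 29 lower. In Carm1-/- the medians were 0.07 and -0.10. A relation of this size also appeared within WT and within Carm1-/-, and not within H3R17H. The rank correlation was 0.51 for WT replicate 1 against the other WT libraries, -0.40 for WT replicate 2 and 0.40 for replicate 1 against the others labelled Carm1-/-. For replicates 1 to 3 labelled H3R17H it was 0.17, 0.01 and -0.16. Values within 1 group are not independent, since each library is set against the others. The part of length in the differences between core and accessory subunits was not tested.

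**Figure D3:**
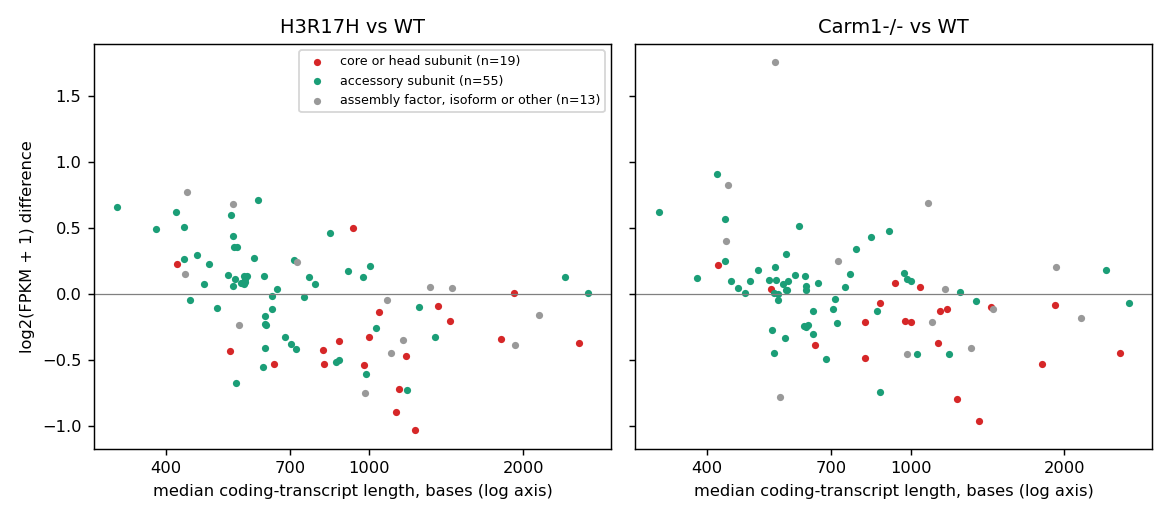
Difference from WT on the log2(FPKM + 1) scale against the median length of a gene's annotated coding transcripts (log axis). The 87 nuclear members are coloured by role, for the libraries labelled H3R17H (left) and Carm1-/- (right). Longer members lie lower, with rank correlations of -0.53 and -0.41, and the 19 core or head subunits are mostly among the longer ones.

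The 3 nuclear members on the X chromosome, Ndufa1, Ndufb11 and Cox7b, are small accessory subunits and were singled out after their values were seen. Ndufa1 (chromosome X, 37187588 to 37191163, minus strand) was at 75, 152 and 145 FPKM in WT, 111, 194 and 284 FPKM in H3R17H and 107, 312 and 331 FPKM in Carm1-/-. The 4 libraries without Y-linked transcripts stood at 194 to 331 FPKM and the 5 with them at 75 to 152 FPKM, with no overlap. In a fit of group and sex together the coefficient for libraries without Y-linked transcripts was 1.33 (SE 0.31, limma adjusted p = 0.340), and 0.0338% of all genes were called for it. Ndufb11 stood at 181 to 258 FPKM without and 121 to 172 FPKM with Y-linked transcripts (0.52, SE 0.21, adjusted p = 0.538). Cox7b overlapped, at 91 to 187 and 70.9 to 120 FPKM (0.67, SE 0.32, adjusted p = 0.581). Over the 387 tested X-linked genes the median of this coefficient was 0.29. The 4 libraries were all edited, so sex and editing are only partly separated.

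**Figure D4:**
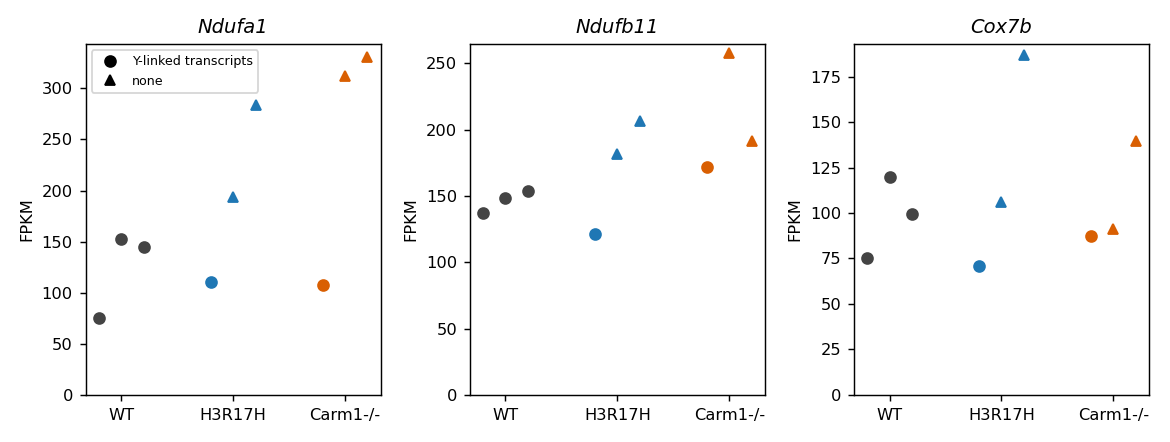
FPKM of the X-linked members Ndufa1, Ndufb11 and Cox7b in each library by label, replicates 1 to 3 from left to right, with circles for libraries with Y-linked transcripts and triangles for those without. For Ndufa1 the triangles lie at 194 to 331 FPKM and the circles at 75 to 152 FPKM.

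On chrM, the mRNA rows whose sequence annotated nuclear transcripts repeat almost in full were low. Of the 13 mRNAs, CYTB of complex III (4236 ± 946 FPKM in WT), COX1 of complex IV (3297 ± 242 FPKM) and ND1 of complex I (3219 ± 875 FPKM) were the highest. In WT all libraries of CYTB lay above those of COX1, and ND1 overlapped both. COX2, ATP6, COX3, ND3 and ND4L, which lie on the same strand, were listed at 0.0079 to 25 FPKM. These 5 rows share 98.06% to 100% of their 40-base words with annotated nuclear transcripts. Each has a copy on chromosome 1 that is identical over the aligned 681 bases for COX2, 678 for ATP6, 783 for COX3, 342 for ND3 and 294 for ND4L. The stretches below, read from the annotated transcripts (GENCODE M21, GRCm38) at bases 311 to 370 of COX2 and 145 to 204 of ND3, are the same in both places. Gm28661 lies at 24614885 to 24615565 and Gm28438 at 24612775 to 24613119 of chromosome 1, both on the minus strand.
COX2: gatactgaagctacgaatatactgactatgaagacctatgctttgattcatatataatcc
Gm28661: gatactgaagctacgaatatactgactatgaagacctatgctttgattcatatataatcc
ND3: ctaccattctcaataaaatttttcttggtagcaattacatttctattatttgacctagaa
Gm28438: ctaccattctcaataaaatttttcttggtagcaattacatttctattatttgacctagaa
The 5 mRNAs with 0% to 11.99% of such words (ND1, ND2, ND5, ND6 and CYTB) were at 97.1 to 5623 FPKM, and COX1 and ND4, with 57% and 62.5%, at 688 to 3576 FPKM. ATP8 was low as well, at 0.76 to 2.43 FPKM with 2.42% shared, though it overlaps ATP6 and was compared with annotated transcripts alone. How the authors treated reads that fit several places is not given in the sources used here. The values of the 5 rows and of ATP8 are therefore not read as levels of these mRNAs, and their differences between groups are uncertain.

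Of the mRNA rows with little shared sequence, ND2 of complex I had the smallest p against WT. Its level was 288, 338 and 381 FPKM in WT, 583, 660 and 407 FPKM in H3R17H and 420, 885 and 472 FPKM in Carm1-/-. All 6 edited libraries lay above WT, and the log2 differences were 0.69 (SE 0.29, adjusted p = 0.336) and 0.75 (SE 0.29, adjusted p = 0.391). ND5, another complex I subunit, was at 470 to 612 FPKM in WT, 634 to 869 FPKM in H3R17H and 436 to 731 FPKM in Carm1-/-, above WT without overlap in H3R17H alone. COX1 is not among these rows, since it shares 57% of its 40-base words with nuclear transcripts, and its values are uncertain. COX1 was lower, at 3576, 3140 and 3175 FPKM in WT, 2419, 2121 and 2938 FPKM in H3R17H and 3428, 2344 and 1795 FPKM in Carm1-/-. The libraries labelled H3R17H lay below WT (log2 difference -0.41, SE 0.23, adjusted p = 0.445). CYTB and ND1 overlapped WT in both edited groups. The 13 mRNA rows had medians of 0.20 and 0.18. These medians include COX2, ATP6, COX3, ND3, ND4L and ATP8, which are not read as mRNA levels. Over the 8 rows with a mean of at least 5 FPKM, ND3 among them, the median in H3R17H was 0.35. The summed level of the 13 mRNA rows was 11726 to 13071 FPKM in WT, 11066 to 13711 FPKM in H3R17H and 8957 to 14114 FPKM in Carm1-/-. Replicate 3 labelled Carm1-/- was the lowest of the 9 libraries and replicate 2 the highest.

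**Figure D5:**
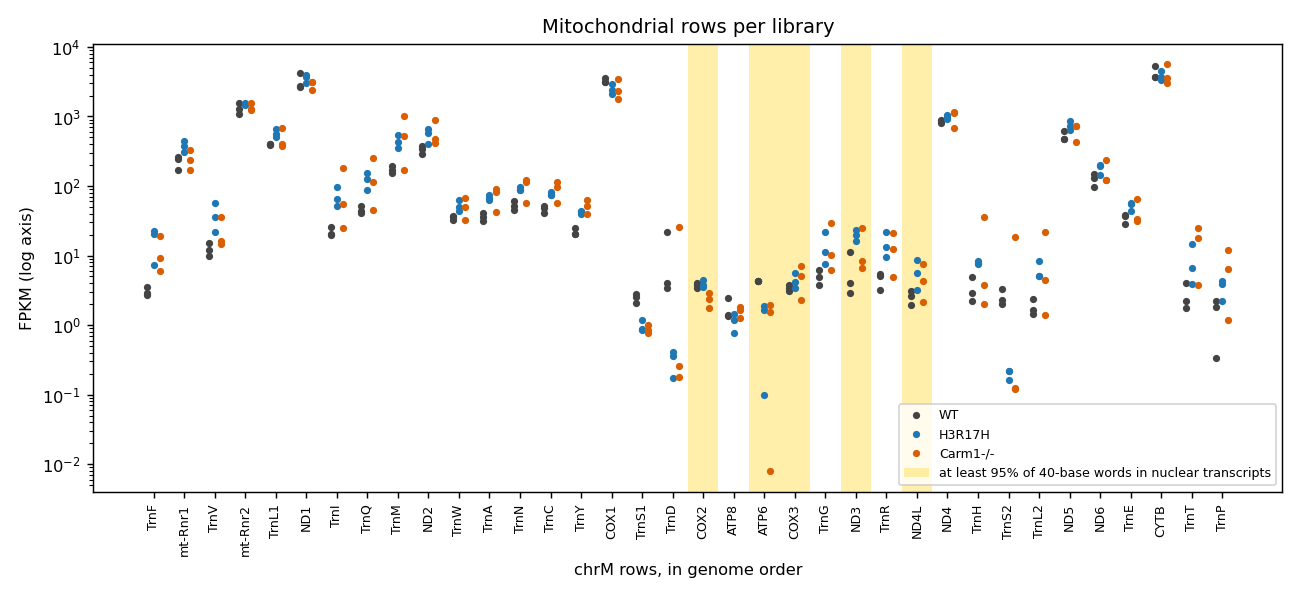
FPKM on a log axis of the 36 chrM rows in genome order, 3 points per label. The shaded rows COX2, ATP6, COX3, ND3 and ND4L, with at least 98.06% of 40-base words in nuclear transcripts, lie between 0.0079 and 25 FPKM, while ND1, COX1 and CYTB lie above 1000 FPKM.

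The higher values on chrM were mainly those of the tRNA rows. Of 21 tRNA rows 18 had a log2 difference from WT above 0 in each edited group, with medians of 0.92 in H3R17H and 0.95 in Carm1-/-. In H3R17H 16 rows were higher in all 3 libraries than in all WT libraries and 3 lower, beside 13.3% and 15.6% of all tested genes. In Carm1-/- 4 were higher and 1 lower, beside 6.91% and 9.71%. The summed tRNA level was 864, 919 and 938 FPKM in WT, 1541, 2005 and 1565 FPKM in H3R17H and 945, 2890 and 1603 FPKM in Carm1-/-. Replicate 1 labelled Carm1-/- lay close to WT and the other 5 edited libraries above it. With a sex term the medians were 0.50 and 0.46. Without replicate 1 labelled Carm1-/- the second was 1.33, with 19 of 21 rows higher, and without replicate 2 it was 0.63, with 15 higher and 6 lower.

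The tRNA rows discussed next are printed 5′ to 3′ from GENCODE M21, with capitals for the anticodon. They are shown because TrnF had the smallest p among chrM rows in H3R17H against WT and TrnY in Carm1-/- against WT, and TrnM and TrnI passed under some alternatives in both comparisons. TrnF lies at chrM:1-68, TrnI at chrM:3706-3774 and TrnM at chrM:3845-3913 on the plus strand, and TrnY at chrM:5260-5326 on the minus strand.
TrnF: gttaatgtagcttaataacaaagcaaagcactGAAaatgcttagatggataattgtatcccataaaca
TrnY: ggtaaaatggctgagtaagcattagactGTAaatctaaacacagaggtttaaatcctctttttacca
TrnM: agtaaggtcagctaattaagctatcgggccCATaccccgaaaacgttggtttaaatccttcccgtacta
TrnI: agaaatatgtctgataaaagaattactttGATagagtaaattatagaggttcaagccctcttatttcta
No tRNA row shared a 40-base word with an annotated nuclear transcript, but nuclear sequence outside annotated transcripts was not searched. On chrM, TrnG and TrnR lie between COX3, ND3 and ND4L, whose copies lie side by side on chromosome 1, and TrnD adjoins COX2. Whether these 3 tRNA genes also have copies there was not tested, so their values are uncertain. The rows are 59 to 75 bases long and adjoin or overlap mRNA and rRNA genes, so whether their reads came from mature tRNAs or from longer RNAs that span them was not tested. Strand is not given for these counts either, so reads of the 8 tRNA genes on the minus strand cannot be told apart from antisense RNA. Rows of both strands were higher: 11 of 13 plus-strand and 7 of 8 minus-strand rows in each edited group.

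TrnF, for phenylalanine, lies first behind the promoters of mitochondrial DNA. Its level was 3.47, 2.73 and 2.85 FPKM in WT, 20.7, 22.5 and 7.41 FPKM in H3R17H and 6.09, 18.9 and 9.13 FPKM in Carm1-/-. All 6 edited libraries lay above WT, with log2 differences of 2.02 (SE 0.47, limma adjusted p = 0.212) and 1.49 (SE 0.47, adjusted p = 0.300). TrnY, for tyrosine, was at 20.5, 20.3 and 24.9 FPKM in WT, 44.3, 42 and 39.7 FPKM in H3R17H and 39.2, 63.8 and 51.9 FPKM in Carm1-/-. Again all 6 lay above WT, with log2 differences of 0.91 (SE 0.24, adjusted p = 0.224) and 1.18 (SE 0.24, adjusted p = 0.196). Its neighbours TrnA and TrnC were also higher in all 6 edited libraries than in all WT libraries, as was the ND2 mRNA between TrnM and TrnW. In all, 5 chrM rows were higher in this way (TrnF, TrnY, TrnA, TrnC and ND2) and 2 lower (TrnS1 and ATP6), beside 2.6% and 4.34% of all tested genes. The ATP6 row is not read as a level of that mRNA.

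TrnM, for methionine, lies with TrnI and TrnQ between ND1 and ND2. Its level was 153, 171 and 191 FPKM in WT, 357, 536 and 433 FPKM in H3R17H and 172, 1024 and 531 FPKM in Carm1-/-. Replicate 1 labelled Carm1-/- lay inside the WT range and the other 5 edited libraries above it. The log2 difference was 1.34 (SE 0.50, adjusted p = 0.294) for H3R17H and 1.40 (SE 0.50, adjusted p = 0.356) for Carm1-/-. Without replicate 1 labelled Carm1-/- limma gave an adjusted p of 0.045 for TrnM in H3R17H against WT. The same fit gave a log2 difference of 2.10 (SE 0.28, adjusted p = 0.0125) in Carm1-/- against WT, where that label keeps 2 libraries. TrnI, for isoleucine, had the same pattern, at 19.7, 20.1 and 25.7 FPKM in WT, 65.1, 97.6 and 51.4 FPKM in H3R17H and 25.3, 183 and 55.6 FPKM in Carm1-/-.

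Some tRNA rows went the other way on the log2 scale, all of them low. TrnS1, for serine, stood at 2.05 to 2.76 FPKM in WT, above the 0.77 to 1.17 FPKM of all 6 edited libraries (log2 differences -0.81 and -0.87, SE 0.29 each, adjusted p = 0.282 and 0.320). TrnD was at 3.45, 21.8 and 4.09 FPKM in WT, 0.17 to 0.40 FPKM in H3R17H and 25.3, 0.18 and 0.26 FPKM in Carm1-/-. TrnS2 was at 1.98 to 3.35 FPKM in WT, 0.16 to 0.22 FPKM in H3R17H and 0.12, 18.3 and 0.12 FPKM in Carm1-/-. For TrnD and TrnS2 a single library labelled Carm1-/- lay above or near the top of the WT range. With that library the mean FPKM of TrnS2 was 6.19 in Carm1-/-, above the 2.55 of WT. The rRNA mt-Rnr1, of the small ribosomal subunit, was at 171, 266 and 248 FPKM in WT, 440, 380 and 312 FPKM in H3R17H and 333, 238 and 171 FPKM in Carm1-/-, above WT without overlap in H3R17H (log2 difference 0.73, SE 0.27, adjusted p = 0.296). The rRNA mt-Rnr2, of the large subunit, overlapped WT in both groups, with 1090 to 1567 FPKM there and 1221 to 1580 FPKM across the edited libraries.

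Genes that serve the chain were read from fixed lists, and 0 of their 149 tested entries passed in any comparison with limma. At an unadjusted p under 0.05 limma gave 7 higher and 12 lower (4.7% and 8.05%) in H3R17H against WT, beside 6.41% and 7.75% of all genes. It gave 0 and 11 (0% and 7.38%) in Carm1-/- against WT, beside 5.25% and 6.19%, and 1 and 7 (0.671% and 4.7%) in Carm1-/- against H3R17H, beside 4.09% and 4.12%. Of 18 genes of the tricarboxylic acid cycle, to which complex II belongs, 13 had log2 differences from WT below 0 in each edited group, with medians of -0.43 and -0.26. Idh3a, the catalytic subunit of NAD-dependent isocitrate dehydrogenase, was at 153, 165 and 196 FPKM in WT, 63.8, 46 and 93 FPKM in H3R17H and 135, 42.7 and 75.4 FPKM in Carm1-/-. All 6 edited libraries lay below WT, with log2 differences of -1.38 (SE 0.39, adjusted p = 0.226) and -1.16 (SE 0.39, adjusted p = 0.326). Suclg1, a subunit of succinyl-CoA ligase, had log2 differences from WT of -0.57 (SE 0.24) and -0.45 (SE 0.24). Pdha1, an X-linked subunit of pyruvate dehydrogenase, had log2 differences of 0.74 (SE 0.30, adjusted p = 0.320) and 0.43 (SE 0.30, adjusted p = 0.584).

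Of the other lists, protein import had 20 of 23 members higher in H3R17H and 16 of 23 in Carm1-/-, with medians of 0.18 and 0.09. Tomm20, an outer membrane receptor for imported proteins, was at 63.6, 53 and 50.1 FPKM in WT, 109, 113 and 78.3 FPKM in H3R17H and 52.2, 122 and 102 FPKM in Carm1-/-. Of 11 tested carriers and uncoupling genes 9 and 8 were lower, with medians of -0.45 and -0.39. Slc25a4, an exchanger of ADP and ATP, was at 870, 811 and 691 FPKM in WT, 575, 363 and 768 FPKM in H3R17H and 805, 196 and 369 FPKM in Carm1-/-. Of 32 factors that assemble complexes II to V, 12 were higher in H3R17H and 16 in Carm1-/-. Among them the complex II factors Sdhaf3 and Sdhaf4 were lower than WT in all 3 libraries labelled H3R17H, and neither passed. Of all tested genes, 15.6% were lower in all H3R17H than in all WT libraries.

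Genes that copy and transcribe mitochondrial DNA did not share a direction, with 16 of 27 tested members higher in H3R17H and 12 of 27 in Carm1-/-. Polrmt, the mitochondrial RNA polymerase, was at 9.61, 6.22 and 5.18 FPKM in WT, 25.2, 15.9 and 14.8 FPKM in H3R17H and 4.3, 8.49 and 10.1 FPKM in Carm1-/-. The libraries labelled H3R17H lay above the other 6, with a log2 difference of 1.30 from WT (SE 0.37, adjusted p = 0.232). Tfb1m, an rRNA methyltransferase of the mitochondrion, was at 9.34 to 13.2 FPKM in WT and 3.69, 0.61 and 5.41 FPKM in Carm1-/-, all below WT (log2 difference -1.74, SE 0.47, adjusted p = 0.266). Of 14 tested regulators of nuclear respiratory genes 7 were higher in H3R17H and 3 in Carm1-/-. Complex I assembly factors outside the Nduf names (7 tested), cytochrome c and related subunits (7 tested) and fission and fusion genes (10 tested) had medians of -0.46, -0.16 and -0.18 in H3R17H against WT and 0.03, -0.07 and -0.04 in Carm1-/- against WT. In the last list Dnm1l, which divides mitochondria, was at 28.3 to 39.9 FPKM in WT, 22.3 to 22.9 FPKM in H3R17H and 13.9 to 19.2 FPKM in Carm1-/-, with all 6 edited libraries below WT.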

How the data were processed

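Values were deposited by the authors as FPKM, 1 column for each library, per the file headers. Bowtie 0.12.2 is named in the submitters' processing notes, with builds mm10 and GRCm38. No quantifier, annotation, strand setting or treatment of repeated sequence is given in the sources used here. Because the unit is relative to each library's total, abundant RNAs can shift other genes, and depth is unknown.

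Tested genes reached 1 FPKM in 3 or more libraries (11850). Their log2(FPKM + 1) values entered 1 limma model over all 9 libraries, with a trend, p-values adjusted after Benjamini and Hochberg over every tested gene, and 0.05 as threshold. Differences are on that scale and understate changes of low genes. Members, lists, tests and alternatives were chosen with earlier results of these data known. Genes to be named were the 3 members with the smallest p in each complex and on chrM, members with the highest or lowest WT level, chrM rows, a fixed set of subunits and the 3 genes with the smallest p of each pathway list. Not all of these are printed, and the X-linked members were chosen after their values were seen. Positions and transcripts are from GENCODE M21 (90 of 91 nuclear members matched) and promoters from RefSeq, both GRCm38. Shared sequence was counted in words of 40 bases. Alternatives were pseudocounts of 0.1 and 5, testing without a filter or above a mean of 5 FPKM, scaling by median of ratios, by nuclear genes or by quantiles, limma without a trend or with array quality weights, a fit of the compared groups alone, a replicate block, a sex term and each library left out. The fit was tested on simulated data. Tools were R 4.3.3, limma 3.58.1, Python 3.11.15, pandas 2.3.3, numpy 2.4.6, matplotlib 3.10.9 and Biopython 1.88.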

Additional observations from a re-analysis of the deposited data

How the results depend on the processing

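The count of members past the threshold, 0 in each comparison as reported, changed under few of the 21 alternatives. In H3R17H against WT it was 6 with array quality weights (Sdhd lower and TrnF, TrnI, TrnM, TrnQ and TrnY higher, in a fit that called 1.62% of all genes). It was 6 with only the groups compared (Sdhd and TrnS2 lower and TrnF, TrnI, TrnM and TrnQ higher, 2.03% of all genes). Leaving out 1 library at a time gave 0 to 1 members there, the 1 being TrnM without replicate 1 labelled Carm1-/- (1.05% of all genes). In Carm1-/- against WT leaving out 1 library gave 0 to 14 members, the 14 without replicate 1 of that label: Atp5k, Cox7a1 and 10 tRNAs higher, and Atp5a1 and TrnD lower (4.63% of all genes). No other alternative called a member in that comparison, and none did between the edited groups, where leaving out 1 library gave 0. The cause was not tested.

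The nuclear and chrM medians moved by less than the SD of the library medians in every alternative. Leaving out 1 library gave nuclear medians of -0.11 to 0.04 in H3R17H against WT and -0.11 to 0.06 in Carm1-/- against WT, and chrM medians of 0.56 to 0.77 and 0.17 to 0.82. In Carm1-/- against WT, Uqcrb turned to 0.057 with array quality weights and Uqcr10 to -0.12 with a sex term. Leaving out 1 library gave -0.68 to 0.30 for Uqcrb and -0.78 to 0.031 for Cox7c there, and -0.056 to 0.58 for Sdhd in Carm1-/- against H3R17H. The sign turned without replicate 1 labelled Carm1-/- in all 3 cases. The causes were not tested.

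With the replicate number as a block, 0 members passed in each comparison and the medians were as reported. Libraries with the same number had correlations of deviations from -0.05 to 0.18, and 4 of 9 libraries correlated best with their own number, so the numbers were not taken as pairs. Depth is unknown, so the counting limit of a value cannot be given, that of the low rows included.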
